A study of Saccharomyces cerevisiae with 12 samples.

Results

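Genes of Saccharomyces cerevisiae that encode small subunits of the mitochondrial protein import machinery were followed through a series of RNA immunoprecipitations. They were chosen by name, through their locus tags, and are 10 of the 7126 features in the count tables: TIM8, TIM9, TIM10, TIM12, TIM13, TOM5, TOM6, TOM7, TOM20 and TOM22. In the study, RNA bound to the nuclear mRNA-binding protein Npl3 or to the mRNA export receptor Mex67 was sequenced after UV cross-linking of living cells, beside a control without a tag. The groups were Npl3 (strain HKY157), Mex67 (strain HKY1266) and no tag (HKY36/HKY381), each heat-stressed for 30 min at 42 °C or kept for 30 min at 25 °C. Each of the 6 groups had 2 libraries, called biological replicates in the series design. Every culture was grown at 25 °C in YPD medium and then divided between the temperatures. The labels name a pair of strains for the control, and both c-myc antibody and GFP-Trap beads, without assigning either to a library. A difference in strain or beads therefore cannot be told apart from a difference between the precipitated proteins.

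Most mitochondrial proteins are made in the cytosol and enter through the translocase of the outer membrane, TOM, whose channel is Tom40. Tom20 and Tom22 are receptors that recognise targeting signals, and Tom22 also holds the complex together. Tom5, Tom6 and Tom7 are very short membrane proteins at the channel: Tom5 helps pass precursors into it, while Tom6 and Tom7 act on how the complex assembles and comes apart. The small Tim proteins are chaperones of the intermembrane space that carry hydrophobic precursors to the inner and outer membranes. Tim9 pairs with Tim10, Tim8 pairs with Tim13, and Tim12 docks the chaperones on the carrier translocase of the inner membrane.

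All the members are short genes on build R64. The small TIM genes are TIM8 (YJR135W-A, chromosome X, 676971 to 677234), TIM9 (YEL020W-A, chromosome V, 117211 to 117474), TIM10 (YHR005C-A, chromosome VIII, 115620 to 115901), TIM12 (YBR091C, chromosome II, 427155 to 427484) and TIM13 (YGR181W, chromosome VII, 858287 to 858604). The TOM genes are TOM5 (YPR133W-A, chromosome XVI, 797557 to 797709), TOM6 (YOR045W, chromosome XV, 413852 to 414037), TOM7 (YNL070W, chromosome XIV, 493366 to 493548), TOM20 (YGR082W, chromosome VII, 644044 to 644595) and TOM22 (YNL131W, chromosome XIV, 378767 to 379225). Coding lengths ran from 153 to 552 bp with a median of 273 bp, against a median of 1287 bp over 5134 tested nuclear coding genes. None of the 10 overlapped another gene of the RefSeq annotation. The 957 counted features that matched no RefSeq entry could not be checked for overlap.

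Libraries held 87741 to 1140349 counts. The smallest, no-tag replicate 1 at 42 °C, had only 1 to 6 counts of each member, 23 in all, while the other 11 libraries had 110 to 1882 counts of the members together. Single members were low elsewhere too. The lowest count of a member was 2 to 6 in the other no-tag and Mex67 libraries, except 20 in Mex67 replicate 1 at 42 °C. In Npl3 libraries it was 23 to 48. The smallest library also had 300.4 CPM (counts scaled to a common library total) of the heat shock gene HSP26, against 3544 to 10305 CPM in the other 5 heated libraries and 56.7 to 633 CPM in the 6 libraries at 25 °C. For HSP12 these values were 300.4, 2149 to 5727 and 42.0 to 306 CPM. Other heat genes separated less: SSA4 had 317, 577 to 2936 and 75.1 to 600 CPM, and HSP104 had 1151, 2493 to 3861 and 998 to 2405 CPM. STE2, a pheromone receptor gene expressed by only one mating type, was at 0 to 7.73 CPM in replicate 1 and 126 to 354 CPM in replicate 2 of all groups. STE3, the receptor gene of the other mating type, did not mirror it: it was at 1.24 to 54.4 CPM in Npl3, 23.3 to 201 CPM in Mex67 and 299 to 467 CPM in no-tag libraries. The part of these differences in the results below was not tested. Replicates of a group differed by more than sampling noise, with a chi-square per degree of freedom of 10.9 to 28.5. CPM below are scaled with the TMM factors of edgeR, and pairs of values are replicates 1 and 2, in that order.

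All 10 members had enough counts to be among the 5245 features tested. Each exceeded the filter's level of 17.1 CPM in all 4 Npl3 libraries and also in at least 2 of the 8 other libraries (TIM12 in 2, TIM8 in 3), so no member was kept through the Npl3 libraries alone. Counts come from bulk lysates, so RNA bound in fewer cells and less bound RNA per cell cannot be told apart. No input RNA was analysed here, and the amount of each message in the cells was not measured.

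The Npl3 precipitates held more of the import messages than either of the other kinds. Summed over the members, the Npl3 libraries held 1330 and 1032 CPM at 42 °C, against 371 and 452 CPM in Mex67 libraries and 384 and 450.4 CPM in no-tag libraries. At 25 °C the sums were 946 and 1503 CPM with Npl3, 284 and 497 CPM with Mex67 and 677 and 385 CPM with no tag. Every Npl3 library lay above every Mex67 and no-tag library of either temperature, and the Mex67 and no-tag sums overlapped at 25 °C. At 42 °C the Mex67 sums spanned the no-tag sums.

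**Figure D1:**
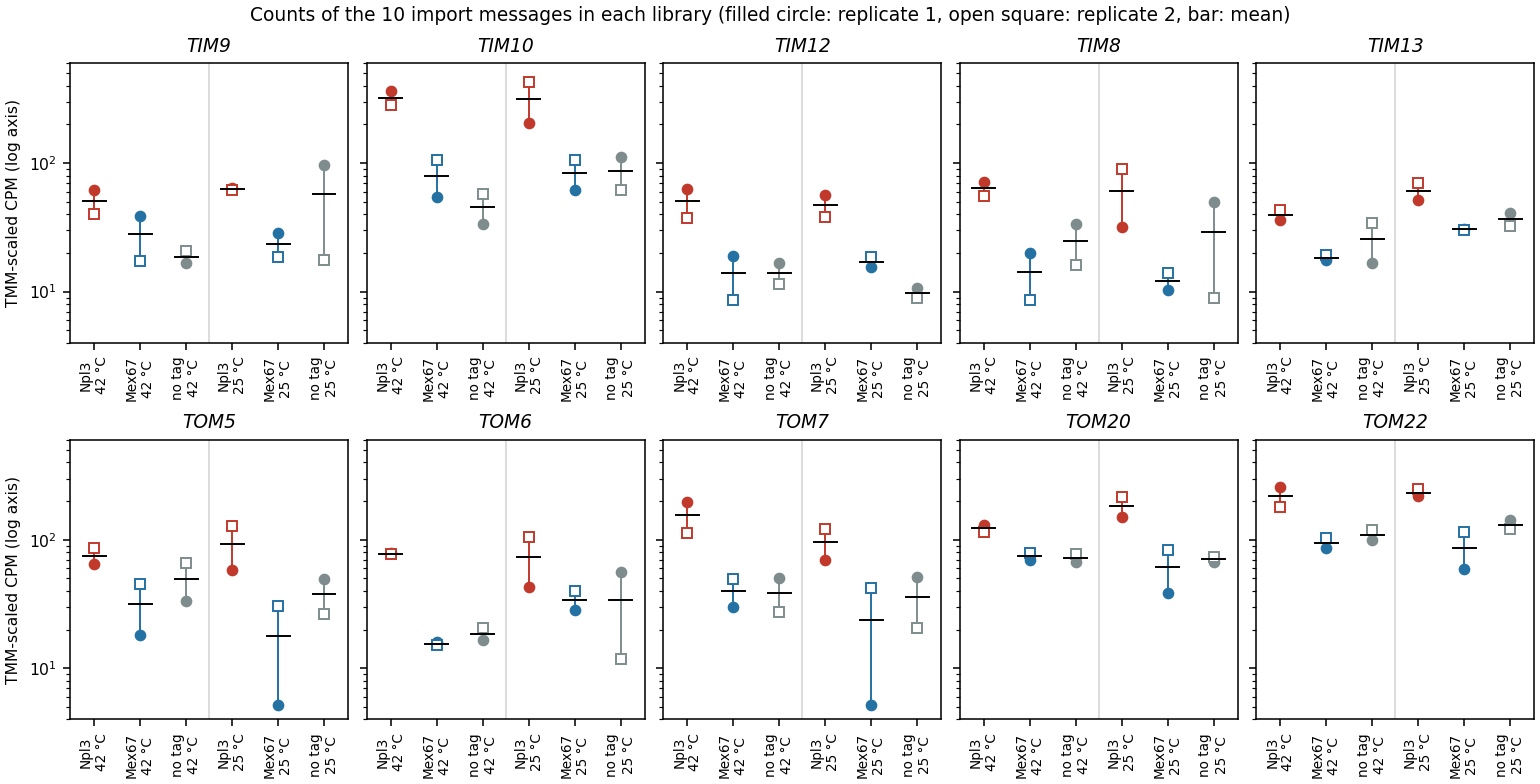
TMM-scaled CPM of each import gene (log axis) in the 12 libraries, with Npl3, Mex67 and no tag at 42 °C on the left of each panel and at 25 °C on the right. Filled circles are replicate 1, open squares replicate 2 and black bars the means of 2 libraries. TIM10 in the Npl3 libraries, at 205 to 425 CPM, lies above all other groups, and TIM9 at 25 °C spans 17.8 to 97.4 CPM in the no-tag libraries.

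Among the small TIM chaperones, TIM10, which encodes the partner of Tim9, gave the clearest difference between precipitates. In the Npl3 libraries at 42 °C it had 365 and 283 CPM, against 54.1 and 105 CPM in Mex67 libraries and 33.4 and 57.2 CPM in no-tag libraries. At 25 °C it had 205 and 425 CPM with Npl3, 61.9 and 105 CPM with Mex67 and 112 and 62.1 CPM with no tag. The lowest Npl3 library was above the highest library of the other groups at both temperatures. TIM10 rose in Npl3 over no-tag precipitates at 42 °C by 2.67 ± 0.56 (log2 difference ± SE, 6.36-fold, edgeR quasi-likelihood test, Benjamini-Hochberg adjusted p = 0.0202). It rose in Npl3 over Mex67 precipitates at the same temperature by 2.05 ± 0.49 (adjusted p = 0.0424). At 25 °C its differences were 1.84 ± 0.49 over no tag (adjusted p = 0.0625) and 1.91 ± 0.49 over Mex67 (adjusted p = 0.0534), neither past the threshold of 0.05. The first call was lost without no-tag replicate 1 or 2 at 42 °C (differences 2.42 and 3.11). Leaving out Npl3 replicate 1 at 42 °C (2.48) lost it too. The second call was lost when any of 10 of the 12 libraries was left out (differences 1.52 to 2.44). The exceptions were no-tag replicate 1 at 25 °C and Npl3 replicate 2 at 42 °C. Where these calls were lost, fewer of all features were called too, so the losses are not particular to TIM10.

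TIM9, whose product joins Tim10 in one chaperone, did not pass the test in any comparison. At 42 °C it had 61.9 and 40.2 CPM with Npl3, 39.0 and 17.2 CPM with Mex67 and 16.7 and 20.6 CPM with no tag. At 25 °C it had 63.7 and 61.5 CPM with Npl3, 28.4 and 18.7 CPM with Mex67 and 97.4 and 17.8 CPM with no tag. The single highest TIM9 value of the 12 libraries was thus a control, no-tag replicate 1 at 25 °C. The Npl3 over no-tag difference was 1.34 ± 0.77 at 42 °C (adjusted p = 0.269) and 0.05 ± 0.57 at 25 °C (adjusted p = 0.969). Without no-tag replicate 2 at 25 °C the value at 25 °C was −0.61, and without no-tag replicate 1 at 25 °C it was 1.81, so its size and sign rest on these libraries.

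TIM12, the docking chaperone of the carrier translocase, separated between precipitates, but from few counts. It had 41 to 51 counts in Npl3 libraries and 1 to 24 in the other 8, with 6 and 3 in no-tag libraries at 25 °C. At 42 °C it had 63.1 and 37.7 CPM with Npl3, 19.1 and 8.61 CPM with Mex67 and 16.7 and 11.4 CPM with no tag. At 25 °C it had 56.8 and 38.3 CPM with Npl3, 15.5 and 18.7 CPM with Mex67 and 10.6 and 8.88 CPM with no tag. All 4 Npl3 libraries exceeded the other 8. TIM12 rose in Npl3 over no-tag precipitates at 25 °C by 2.23 ± 0.53 (4.68-fold, adjusted p = 0.0494), and the corresponding difference at 42 °C was 2.01 ± 0.62 (adjusted p = 0.0617). Over Mex67 the differences were 1.72 ± 0.46 at 42 °C (adjusted p = 0.0525) and 1.45 ± 0.50 at 25 °C (adjusted p = 0.109). The call at 25 °C was close to the threshold: it was lost on leaving out any no-tag library, any Npl3 or Mex67 library at 25 °C (adjusted p = 0.0536 to 0.217), and it held without each of the Npl3 and Mex67 libraries at 42 °C.

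The TIM8 and TIM13 chaperone pair did not pass the test in any comparison. TIM8 had 71.8 and 55.2 CPM with Npl3, 19.9 and 8.61 CPM with Mex67 and 33.4 and 16.0 CPM with no tag at 42 °C. It had 31.8 and 90.3 CPM with Npl3, 10.3 and 14.0 CPM with Mex67 and 49.6 and 8.88 CPM with no tag at 25 °C. The Npl3 libraries were clear of Mex67 at both temperatures, while at 25 °C they overlapped no tag. The differences over Mex67, 2.01 ± 0.65 at 42 °C and 2.33 ± 0.74 at 25 °C, had adjusted p of 0.0928 and 0.0889. TIM13 had 35.9 and 43.5 CPM with Npl3, 17.5 and 19.4 CPM with Mex67 and 16.7 and 34.3 CPM with no tag at 42 °C. It had 51.2 and 69.5 CPM with Npl3, 30.9 and 30.3 CPM with Mex67 and 40.7 and 32.6 CPM with no tag at 25 °C. TIM13 thus lay clear of Mex67 at both temperatures, and its Npl3 over no-tag differences were 0.38 ± 0.45 at 42 °C (adjusted p = 0.618) and 0.71 ± 0.38 at 25 °C (adjusted p = 0.305). At 42 °C the TIM13 value was 0.15 without no-tag replicate 1 and 1.10 without no-tag replicate 2.

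Of the small TOM subunits, TOM5 gave the least even picture. It had 64.4 and 86.2 CPM with Npl3, 18.3 and 45.2 CPM with Mex67 and 33.4 and 66.3 CPM with no tag at 42 °C. It had 58.2 and 128 CPM with Npl3, 5.16 and 30.3 CPM with Mex67 and 49.6 and 26.6 CPM with no tag at 25 °C. At 42 °C the Npl3 and no-tag libraries overlapped, and TOM5 was the one member for which they did. Its Npl3 over no-tag difference was 0.39 ± 0.66 at 42 °C (adjusted p = 0.745) and 1.26 ± 0.61 at 25 °C (adjusted p = 0.263), and over Mex67 it was 1.34 ± 0.61 and 2.36 ± 0.68 (adjusted p = 0.210 and 0.0681). Single libraries set the size of these values: over Mex67 at 25 °C the TOM5 difference was 1.63 without Mex67 replicate 1 and 4.16 without Mex67 replicate 2. Over no tag at 42 °C it was 0.13 without no-tag replicate 1 and 1.03 without no-tag replicate 2.

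TOM6, which encodes an assembly factor of the TOM complex, had similar values in heated replicates. They were 79.2 and 77.0 CPM with Npl3, 15.9 and 15.1 CPM with Mex67 and 16.7 and 20.6 CPM with no tag. The counts behind them were 64 and 92, 20 and 7, and 1 and 9. With so few counts the no-tag pair cannot show how well the replicates match. At 25 °C the replicates spread widely, with 42.9 and 105 CPM with Npl3, 28.4 and 39.6 CPM with Mex67 and 56.7 and 11.8 CPM with no tag. TOM6 rose in Npl3 over Mex67 precipitates at 42 °C by 2.31 ± 0.58 (4.97-fold, adjusted p = 0.0470), and its other differences did not pass the test. The value over no tag was 1.97 ± 0.71 at 42 °C (adjusted p = 0.0970). The call over Mex67 was lost on leaving out any library except no-tag replicate 1 at 25 °C (differences 2.15 to 2.33). Fewer of all features were called in these fits too, except without Npl3 replicate 2 at 42 °C, where more were.

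TOM7, whose product acts against stable assembly of the TOM complex, was high in all Npl3 libraries. It had 198 and 112 CPM with Npl3, 30.2 and 49.5 CPM with Mex67 and 50.1 and 27.4 CPM with no tag at 42 °C. At 25 °C it had 69.2 and 121 CPM with Npl3, 5.16 and 42.0 CPM with Mex67 and 51.4 and 20.7 CPM with no tag. Every Npl3 library exceeded the other 8 libraries, but no difference was called with edgeR on all groups. The Npl3 over no-tag differences were 2.25 ± 0.76 at 42 °C (adjusted p = 0.0848) and 1.35 ± 0.64 at 25 °C (adjusted p = 0.253). The differences over Mex67 were 2.00 ± 0.62 and 1.99 ± 0.68 (adjusted p = 0.0848 and 0.110). At 42 °C the difference over no tag was called with only the groups compared (adjusted p = 0.0445), with total counts (0.0258) or without Mex67 replicate 1 at 25 °C (0.0480). At 25 °C the difference over Mex67 was 1.19 without Mex67 replicate 1 and 4.19 without Mex67 replicate 2.

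The receptors TOM20 and TOM22 are the longest genes of the group, and their differences over no tag at 42 °C had the smallest errors. TOM20 had 131 and 116 CPM with Npl3, 70.0 and 79.6 CPM with Mex67 and 66.7 and 77.7 CPM with no tag at 42 °C. At 25 °C it had 149.6 and 217 CPM with Npl3, 38.7 and 83.9 CPM with Mex67 and 67.3 and 74.0 CPM with no tag. The Npl3 over no-tag difference was 0.73 ± 0.44 at 42 °C (adjusted p = 0.295) and 1.38 ± 0.40 at 25 °C (adjusted p = 0.0800), and over Mex67 at 25 °C it was 1.57 ± 0.41 (adjusted p = 0.0534). TOM22 had 259 and 182 CPM with Npl3, 86.7 and 103 CPM with Mex67 and 100.1 and 119 CPM with no tag at 42 °C. It had 217 and 248 CPM with Npl3, 59.3 and 114 CPM with Mex67 and 142 and 121 CPM with no tag at 25 °C. For both receptors the 4 Npl3 libraries exceeded the other 8. The TOM22 differences over no tag were 0.97 ± 0.40 at 42 °C (adjusted p = 0.140) and 0.82 ± 0.37 at 25 °C (adjusted p = 0.238).

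Counted over the members, the Npl3 precipitates stood higher than no tag for 10 of 10 at both temperatures, against 54.0% of all features at 42 °C and 50.0% at 25 °C, but only 1 member passed the test at each. At 42 °C the member was TIM10, where 6.54% of the features tested were called higher. At 25 °C it was TIM12, where 2.27% were called higher. The gene called at 25 °C changed with the tool: DESeq2 called TIM10 (adjusted p = 0.0248), where it called 5.40% of features, and gave TIM12 no adjusted p. With the replicate number as a block edgeR called 3 members there, TIM10 (adjusted p = 0.0438) and TOM20 (0.0491) beside TIM12, where 5.13% of features were called higher. The median log2 difference of the members was 1.53 at 42 °C, against 0.10 over all features tested, and 1.14 at 25 °C, against 0.00. Libraries did not overlap, with Npl3 higher, for 9 members at 42 °C (34.9% of all features) and for 7 at 25 °C (28.2%). The exceptions were TOM5 at 42 °C and TIM8, TIM9 and TOM6 at 25 °C.

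The direct comparison of the proteins gave a more even picture. Npl3 was higher than Mex67 for 10 of 10 members at both temperatures (52.0% and 48.8% of all features), with no overlap between libraries in any member, against 30.0% of all features at 42 °C and 28.6% at 25 °C. TIM10 and TOM6 were called higher with Npl3 at 42 °C, 2 of 10 members against 3.24% of all features. With the replicate number as a block TIM12 was also called (adjusted p = 0.0231), where 6.88% of features were called higher. At 25 °C no member passed edgeR's test after adjustment, where 2.52% of features were called higher. With the replicate number as a block 4 members were called at 25 °C, TIM10 (adjusted p = 0.0282), TOM5 (0.0262), TOM20 (0.0259) and TOM22 (0.0386), where 5.99% of features were called higher. There 9 of 10 members were below an unadjusted p of 0.05, against 23.5% of features, and DESeq2 called 4 members (TIM10, TOM5, TOM20 and TOM22), against 5.40% of features. The median difference of the members was 1.53 at 42 °C and 1.51 at 25 °C, against 0.04 and −0.03 over all features.

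Mex67 precipitates did not differ detectably from the control in any member. Mex67 was above no tag in 5 of 10 members at 42 °C, where 56.5% of all features were (median −0.12, against 0.13 over all features) and in 1 of 10 at 25 °C, where 49.7% were (median −0.44, against −0.0036). At either temperature edgeR called 0 members, and 0 were below an unadjusted p of 0.05. DESeq2 called 0 members at 25 °C. At 42 °C it gave no member an adjusted p, so it could not call any. Among all features edgeR called 0% in both comparisons, 11.5% at 42 °C and 3.89% at 25 °C were below an unadjusted p of 0.05, and DESeq2 called 0.172% and 0.0191%. TIM12 at 25 °C was the one member with Mex67 libraries clear above no tag, with a difference of 0.78 ± 0.62 (95% interval −0.57 to 2.12), where 16.7% of features were clear above. The Mex67 libraries were clear below no tag for TIM13 and TOM22 at 25 °C (16.0% of features) and for TOM6 at 42 °C (18.8%), and clear above for 0 members at 42 °C (27.1%). The intervals were wide: for TIM10 at 42 °C the difference was 0.62 with an interval of −0.59 to 1.84. Both proteins were set against the same no-tag libraries, so their differences from it are not independent.

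**Figure D2:**
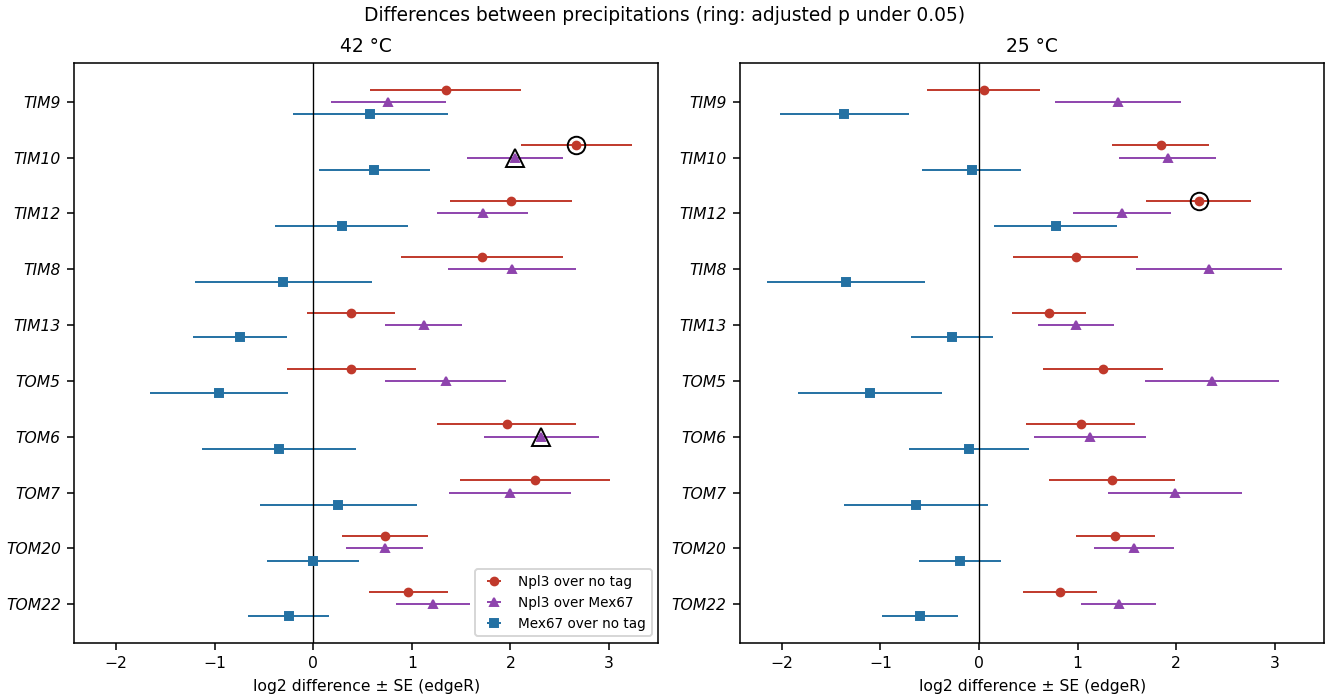
Log2 differences ± SE of each import gene at 42 °C (left) and 25 °C (right), for Npl3 over no tag (red circles), Npl3 over Mex67 (purple triangles) and Mex67 over no tag (blue squares). Outlined symbols passed an adjusted p of 0.05: TIM10 over no tag and TIM10 and TOM6 over Mex67 at 42 °C, and TIM12 over no tag at 25 °C.

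The members share short coding sequences, and short genes in general were higher in Npl3 libraries. Among 129 other coding genes of up to 300 bp, the median Npl3 over no-tag difference at 42 °C was 2.08 (quartiles 1.25 to 3.19), against 1.84 for the 6 members of that length (TIM8, TIM9, TIM10, TOM5, TOM6 and TOM7). Among 580 other genes over 300 and up to 600 bp it was 1.35, against 0.85 for the 4 members (TIM12, TIM13, TOM20 and TOM22), and among 2760 genes over 1200 bp it was −0.19. At 25 °C the median of the shortest genes was 1.32 and that of the 6 members 1.14, and in the next class the values were 1.00 and 1.10. The members therefore lay among other genes of their length: 5 of 6 and 3 of 4 were within the quartiles of their class at both temperatures. For Npl3 over Mex67 the 6 shortest members had medians of 2.01 at 42 °C and 1.95 at 25 °C, against 1.72 and 1.79 for the other genes of up to 300 bp.

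**Figure D3:**
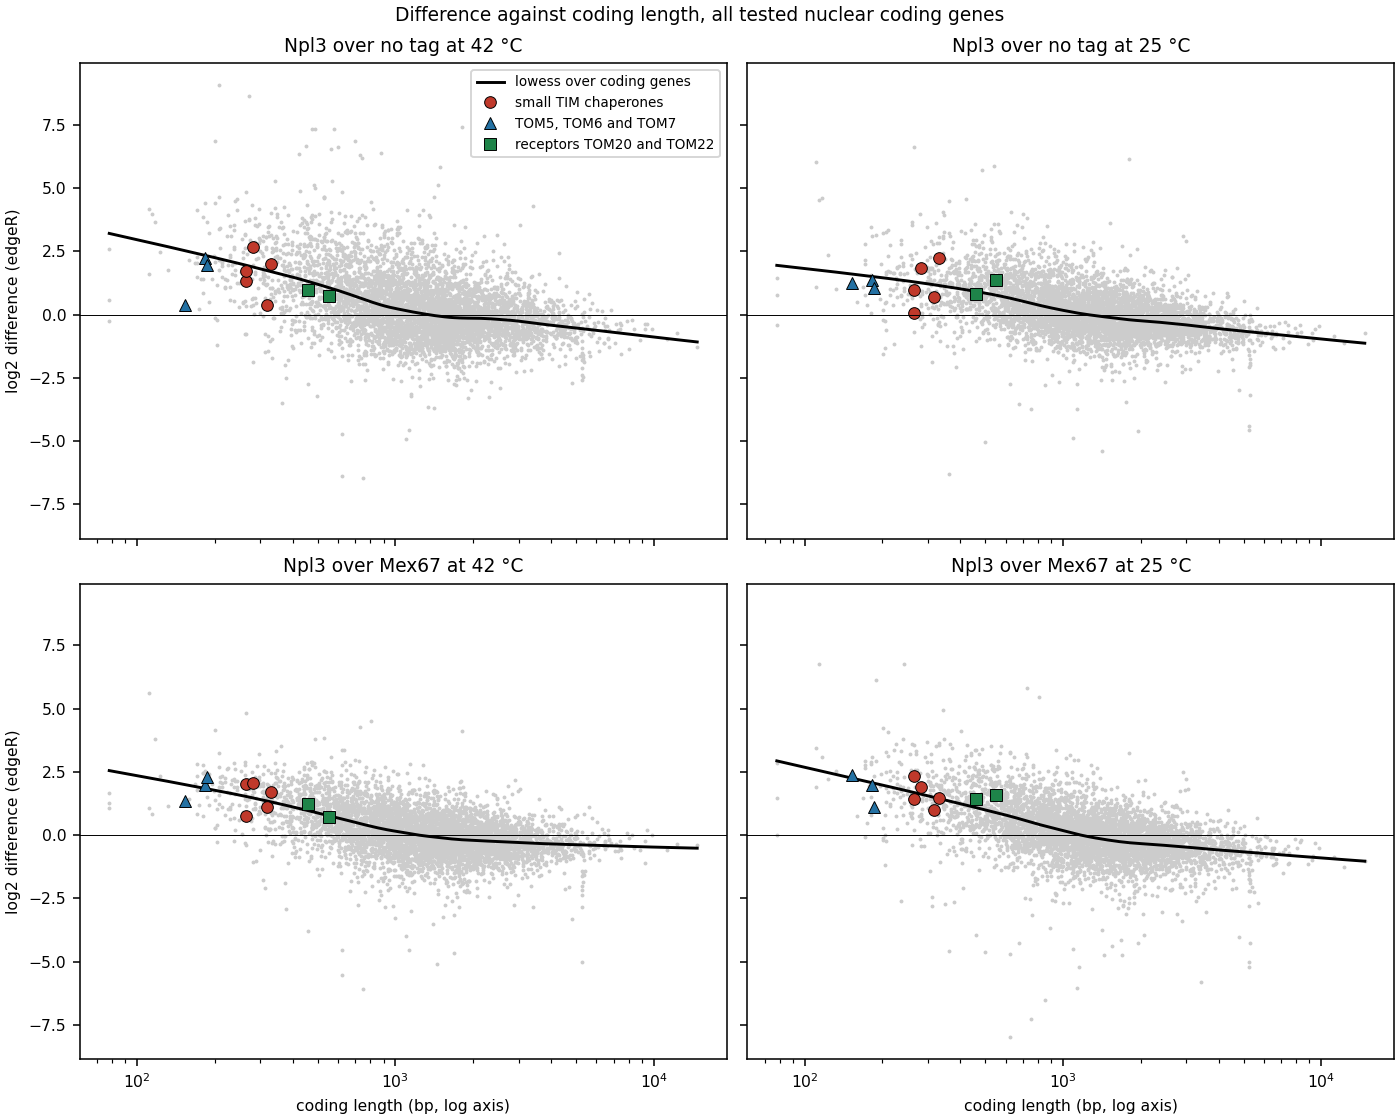
Log2 difference of Npl3 over no tag (top) and over Mex67 (bottom) at 42 °C (left) and 25 °C (right) against coding length (log axis) for all tested nuclear coding genes. Grey dots are genes, the black line is a lowess curve, and the coloured symbols are the 10 import genes by role. The members follow the falling curve, with TOM5, the shortest at 153 bp, 2.14 below it in the upper left panel.

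Single members departed from the lowess curve of difference against length in both directions. At 42 °C TIM10 was 0.79 above the curve for Npl3 over no tag, while TIM13 was 1.36 and TOM5 2.14 below it (departures of −1.36 and −2.14). At 25 °C TIM12 was 1.08 above it and TIM9 below it, at −1.25. When library offsets were corrected for coding length, no member was called in any comparison, and neither was any of the 5224 features with a known length (0%). In the length-corrected fit the median of the members over no tag was −0.28 at 42 °C, with 4 of 10 above 0, and 0.24 at 25 °C, with 6 of 10 above 0. Over Mex67 it was 0.26 at 42 °C, with 6 of 10 above 0, and 0.39 at 25 °C, with 7 of 10 above 0. The calls of TIM10, TIM12 and TOM6 thus did not hold with this correction, where TIM10 was at 0.83 over no tag at 42 °C, TIM12 at 1.05 over no tag at 25 °C and TOM6 at 0.79 over Mex67 at 42 °C. Whether the length trend arose in the cells or in library preparation was not tested.

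**Figure D4:**
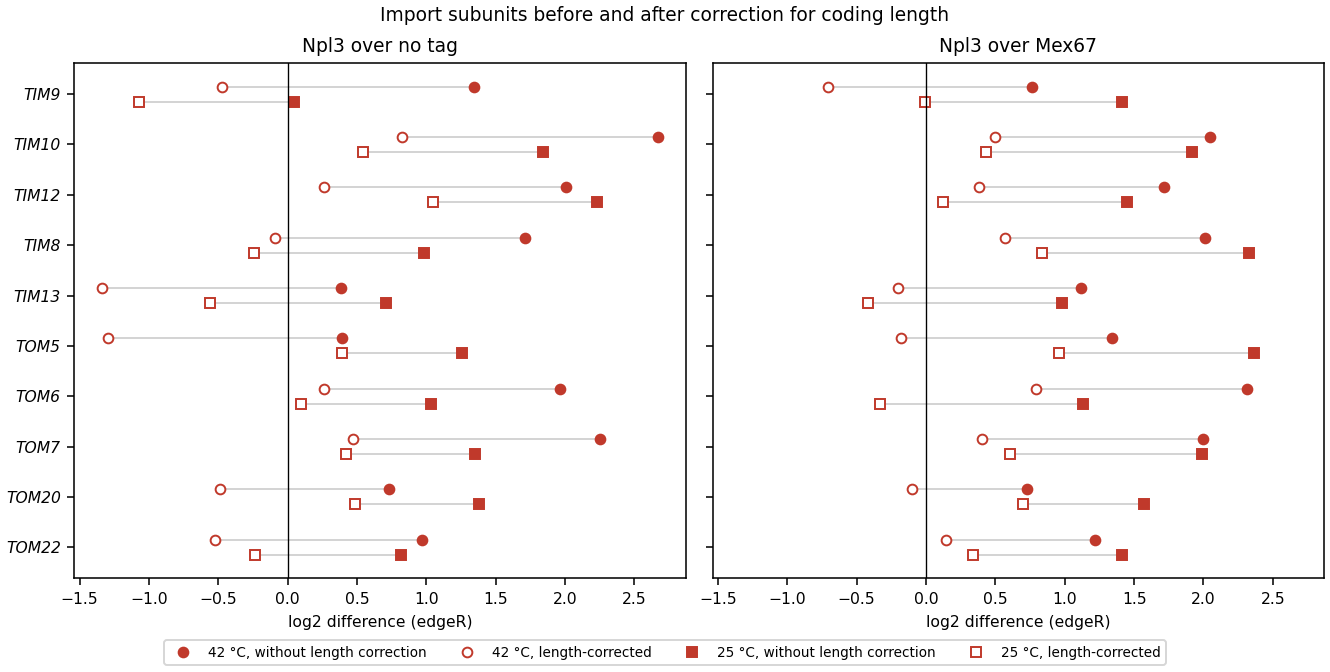
Log2 differences of each import gene without (filled) and with (open) correction for coding length, for Npl3 over no tag (left) and Npl3 over Mex67 (right). Circles are 42 °C and squares 25 °C. Before correction all 40 values are above 0, and after it they scatter on both sides of 0, with TIM10, TIM12 and TOM7 above 0 in all 4 comparisons.

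Heat stress did not move the import messages past the test in any precipitate. With Npl3, 5 of 10 members were above 0 at 42 °C relative to 25 °C, where 56.6% of features were (median −0.03, range −0.61 for TIM13 to 0.69 for TOM7). With Mex67 it was 6 of 10, against 52.8% (median 0.20, range −1.12 for TOM6 to 0.71 for TOM5) and with no tag 3 of 10, against 43.5% (median −0.25, range −1.60 for TIM9 to 0.55 for TOM5). In each, edgeR called 0 members, and 0 were below an unadjusted p of 0.05. DESeq2 also called 0, but with Npl3 it gave no member an adjusted p and could not call any. With Mex67 only TIM10, TOM20 and TOM22 had an adjusted p from DESeq2. Among all features edgeR also called 0% in each. Below an unadjusted p of 0.05 were 6.58% higher and 4.40% lower with Npl3 and 5.22% and 4.98% with Mex67. With no tag these shares were 0.972% and 1.12%. DESeq2 called 0.0572%, 0.248% and 0%. These fits do not pair the libraries of a divided culture. With the culture as a block edgeR called 0 members. Of all features it then called 41 higher and 5 lower with Npl3, 3 and 0 with Mex67 and 0 and 0 with no tag.

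TIM13 was lower at 42 °C without overlap with both proteins, by differences of −0.61 ± 0.35 with Npl3 and −0.74 ± 0.43 with Mex67 (adjusted p = 0.527 and 0.537). The heated libraries were also clear below the unheated ones for TOM20 with Npl3, at −0.58 ± 0.38, and for TOM6 with Mex67, at −1.12 ± 0.64. These 2 of 10 members in each protein stand beside 18.6% and 20.3% of all features. With no tag TIM10 and TOM22 were clear below (18.5% of features) and TIM12 clear above (9.72%).

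The divided cultures did not move together. The log2 change of 42 °C over 25 °C was above 0 for 7 members in Npl3 culture 1 and for 0 in culture 2, for 7 and 3 in the Mex67 cultures and for 1 and 8 in the no-tag cultures. Tests of the difference between heat changes, Npl3 minus no tag, Mex67 minus no tag and Npl3 minus Mex67, called 0 of 10 members each with edgeR, 0 at an unadjusted p under 0.05 and 0 with DESeq2. Of all features edgeR and DESeq2 called 0% in each, and 2.92%, 3.55% and 1.30% were below an unadjusted p of 0.05. The member medians of these differences were 0.44, 0.27 and −0.10. TIM9 had the largest single value, 1.94 ± 1.02 for the Mex67 heat change minus that of no tag (adjusted p = 0.996), and the no-tag term of it includes the 97.4 CPM in no-tag replicate 1 at 25 °C.

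**Figure D5:**
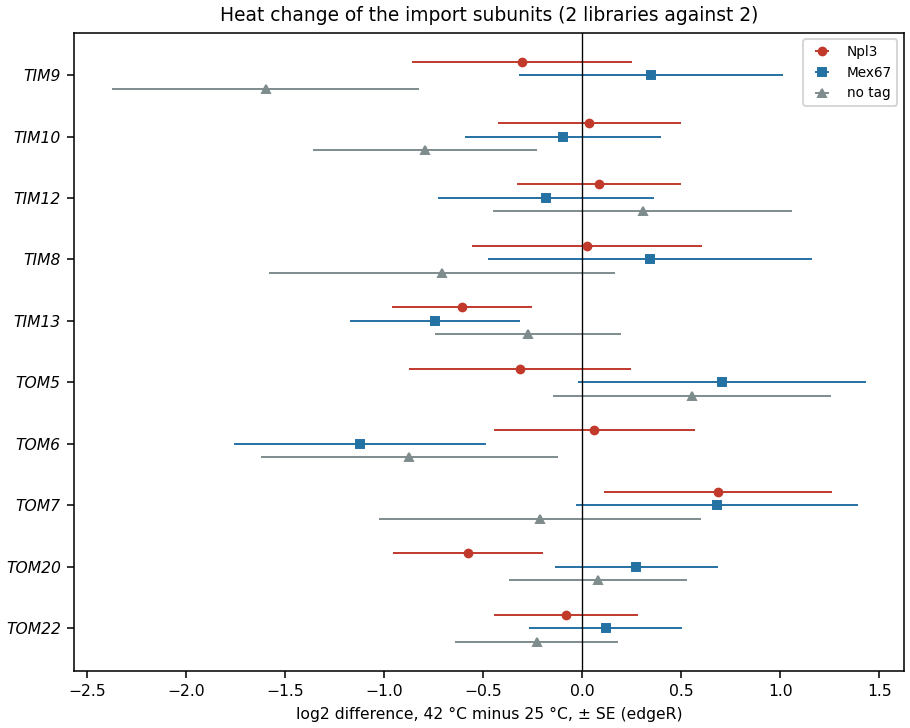
Log2 difference of 42 °C minus 25 °C ± SE for each import gene with Npl3 (red circles), Mex67 (blue squares) and no tag (grey triangles), 2 libraries against 2. No value passed an adjusted p of 0.05, and the no-tag value of TIM9, −1.60, is the farthest from 0.

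Per kb of coding length, TIM10 had the highest mean level of the members in 5 of the 6 groups. It had 1149 ± 206 CPM per kb in heated Npl3 libraries (SD, n = 2), with TOM7 next at 848 ± 332. In unheated Npl3 libraries TIM10 had 1117 ± 552 CPM per kb and TOM5 608 ± 322. The exception was no tag at 42 °C, where TOM5 was highest at 326 ± 152 CPM per kb. TIM12 had the lowest mean in 4 groups, TIM13 in heated Npl3 libraries (125 ± 16.9 CPM per kb) and TIM8 in unheated Mex67 libraries (46.0 ± 9.85 CPM per kb). Neighbours in the order mostly could not be separated: the libraries overlapped in 7 or 8 of the 9 neighbouring pairs of each group.

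Of 36 other genes of mitochondrial import, with a median coding length of 967.5 bp, all were tested. In Npl3 over no-tag precipitates 3 were called higher and 0 lower at 42 °C, and 1 higher and 0 lower at 25 °C with edgeR, beside the 6.54% and 2.27% of all features called higher. Their medians were 0.17 and 0.31, below those of the 10 short members. By edgeR the genes called at 42 °C were PAM16, a subunit of the import motor (2.52 ± 0.68, adjusted p = 0.0435), TIM18, a subunit of the carrier translocase (2.21 ± 0.58, adjusted p = 0.0396), and MGE1, the nucleotide exchange factor of the motor's chaperone (2.14 ± 0.46, adjusted p = 0.0222). At 25 °C the gene was PAM16 (2.93 ± 0.63, adjusted p = 0.0348). MGE1 was the one gene that edgeR called in Npl3 over Mex67, at 2.10 ± 0.43 at 42 °C (adjusted p = 0.0382) and 1.96 ± 0.43 at 25 °C (adjusted p = 0.0379). DESeq2 also called MIA40 over no tag at 42 °C (adjusted p = 0.0452), where it called 408 of all features higher and 155 lower. Over no tag at 25 °C it also called MGE1 (0.0156). It called PAM16 as well over Mex67 at both temperatures (adjusted p = 0.0448 and 0.0159) and TOM70 at 25 °C (0.00762). With the replicate number as a block edgeR also called PAM16 over Mex67 (0.0188 and 0.0113) and MGE1 over no tag at 25 °C (0.0327). No gene of this list was called in Mex67 over no tag by edgeR. Below an unadjusted p of 0.05 were 0 at 42 °C (11.5% of all features) and 1 at 25 °C (3.89%). DESeq2 also called 0, but at 42 °C it gave only TOM70 and SSC1 an adjusted p. Each edgeR call without the block was lost when any of several single libraries was left out (3 to 7 of the 12). The DESeq2 and block calls were not tried with a library left out. For each edgeR call a library of the compared groups was among those whose absence lost it. Where an edgeR call was lost, fewer of all features were called too. The highest adjusted p was 0.223 for MGE1, 0.366 for PAM16 and 0.253 for TIM18 at 42 °C over no tag, all 3 calls being lost without no-tag replicate 1 or 2 or Npl3 replicate 1 at 42 °C. PAM16 and TIM18 at 42 °C were also lost without no-tag replicate 2 or either Npl3 library at 25 °C, and TIM18 without Mex67 replicate 2 at 25 °C. The TIM18 difference at 42 °C was 8.51 without no-tag replicate 2 at 42 °C, and so rests on that library. PAM16 at 25 °C was lost without either no-tag or Npl3 library at 25 °C or no-tag replicate 1 at 42 °C (adjusted p up to 0.165). MGE1 over Mex67 at 25 °C was lost without any Npl3 or Mex67 library at 25 °C or either no-tag library at 42 °C (up to 0.259). MGE1 over Mex67 at 42 °C was lost without replicate 2 of no tag or Mex67 at 25 °C, either no-tag library at 42 °C, Npl3 replicate 1 at 42 °C or Mex67 replicate 2 at 42 °C (up to 0.310).

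Of the membrane translocase genes TOM40, TOM70, TIM23 and TIM17, edgeR called 0 in Npl3 over no tag, and DESeq2 called TOM70 at 25 °C (adjusted p = 0.0492). Below an unadjusted p of 0.05 were TOM70 and TIM17 at 25 °C and 0 of these genes at 42 °C. TOM40, the channel, differed by 0.20 ± 0.36 at 42 °C and 0.70 ± 0.35 at 25 °C in Npl3 over no tag (adjusted p = 0.762 and 0.278). TOM70, a large receptor for carrier precursors of 1854 bp, differed by 0.81 ± 0.42 and 1.22 ± 0.40 (adjusted p = 0.219 and 0.108). TIM23 and TIM17, the core of the presequence translocase, differed by −0.53 ± 0.42 and 0.73 ± 0.40 at 42 °C and by 0.18 ± 0.39 and 1.15 ± 0.37 at 25 °C. Thus TOM40, TOM70 and TIM17 lay above 0 at both temperatures, and TIM23 changed side. With the length correction TIM17 was at −0.67, TOM40 at −0.0673, TIM23 at −1.45 and TOM70 at 0.82 at 42 °C. At 25 °C TIM17 was at 0.14, TOM40 at 0.57, TIM23 at −0.48 and TOM70 at 1.38.

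Over the 12 libraries the log2 CPM of the members correlated with each other in all 45 pairs, from r = 0.38 (TIM9 and TOM5) to r = 0.922 (TOM20 and TOM22), with a median of 0.714. The points share the libraries, and the difference between Npl3 and the other groups enters every pair. The 5 tested features most like the mean of the members were CKB1 (r = 0.958, 837 bp), a regulatory subunit of casein kinase II, UMP1 (r = 0.953, 447 bp), a proteasome assembly chaperone, and SSS1 (r = 0.944, 243 bp), a subunit of the Sec61 translocon. They were followed by MRPL20 (r = 0.943, 588 bp), a mitochondrial ribosomal protein gene, and SBH2 (r = 0.938, 267 bp), a subunit of the Ssh1 translocon. Of these, 4 are no longer than 600 bp.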

How the data were processed

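The deposited values were whole-number counts per annotated feature, 1 table per library. The build was R64, per the submitters' processing notes, which list featureCounts (Subread 1.5.0-p1), DESeq2, CASAVA 1.8.2 and STAR as tools. For strand and reads with several positions, the setting is not given in the sources used here. RNA was fragmented without rRNA removal, per the labels' protocols, with a kit they do not call stranded. Names, places and coding lengths came from RefSeq (6048 features by locus tag, 121 by symbol or synonym, 957 unmatched).

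Tests used R 4.3.3 and edgeR 4.0.16 (TMM, glmQLFit with robust estimation, glmQLFTest) on all 12 libraries with 1 mean per group, 6 residual degrees of freedom and a common biological coefficient of variation of 0.356. filterByExpr (10 counts, 15 in total) left 5245 features, and p-values were adjusted by Benjamini-Hochberg over all of them within each of 12 comparisons. The SE is the size of the log2 change divided by the square root of F, so it rests on all libraries. Single-library log2 values used a prior count of 2. With 2 libraries a group, p-values rest on a spread pooled over all 6 groups and shared across features. They do not measure the spread of the compared groups alone, and they speak only for these samples.

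The members and lists were chosen with earlier results of these data known. Named were all members, TOM40, TOM70, TIM23, TIM17, the 3 highest and lowest called of 36 other import genes, and the 5 features correlating best with the members.

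Because each culture was split between temperatures, the numbers pair libraries within a strain. Deviations of replicates over 2247 features correlated between the temperatures at 0.601 (Mex67), 0.266 (no tag) and 0.114 (Npl3), and between strains at −0.174 to 0.455. No label says that numbers pair across strains, but STE2 followed the number in all groups, so values with the number as a block are given where they change a call.

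Alternatives were RLE size factors, no low-count filter, total counts only, a filter on mean count (50 or more), blocks for replicate number and for culture, the length correction (lowess on log10 coding length per library, span 0.4) alone and with the replicate block, only the groups compared, leaving out each library, and DESeq2 1.42.0. The culture block with length correction was added after the data were seen. The tests were run on simulated data first. Figures used matplotlib 3.10.9.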

Additional observations from a re-analysis of the deposited data

How the results depend on the processing

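Npl3 stood above no tag and Mex67 in every member tested (4 with a mean of at least 50 counts, 10 otherwise) under RLE size factors, total counts, both count filters, the replicate block, only the groups compared and DESeq2, and calls depended on these choices more than directions. Correcting for coding length removed all calls of members in Npl3 over no tag and over Mex67 (0 in each, and 0 of all 5224 features). Medians became −0.28 at 42 °C over no tag, 0.26 and 0.39 over Mex67 at 42 and 25 °C, −0.46 for Mex67 over no tag at 42 °C and −0.18 for the Mex67 heat change. By construction it subtracts the trend with length. Over no tag at 42 °C it turned TIM8 to −0.0886, TIM9 to −0.48, TIM13 to −1.34, TOM5 to −1.29, TOM20 to −0.49 and TOM22 to −0.52, and at 25 °C TIM8 to −0.24, TIM9 to −1.07, TIM13 to −0.56 and TOM22 to −0.23. Over Mex67 it turned TIM9 to −0.71, TIM13 to −0.21, TOM5 to −0.18 and TOM20 to −0.10 at 42 °C, and TIM9 to −0.0093, TIM13 to −0.41 and TOM6 to −0.33 at 25 °C. Over no tag TIM17 turned to −0.67 and TOM40 to −0.0673 at 42 °C, and TIM23 to −0.48 at 25 °C.

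The replicate block (number as a block over all groups) gave 3 called members over no tag at 25 °C (1 without it) and 4 over Mex67 at 25 °C (0 without it), and a median of 1.36 over no tag at 42 °C. It changed no count of members by over 1.5 times elsewhere. With block and length correction 0 members were called over no tag at either temperature or over Mex67. In that fit 65 features of all were called higher and 31 lower over no tag at 25 °C, and 15 and 5 over Mex67 at 25 °C. At 42 °C 58 were called higher and 73 lower over no tag, and 50 and 35 over Mex67. The medians were then −0.22 and 0.13 over no tag at 42 and 25 °C, 0.29 and 0.41 over Mex67, −0.40 for Mex67 over no tag at 42 °C and −0.21 for the Mex67 heat change. In that fit, over no tag at 42 °C, TIM8 was at −0.0867, TIM9 −0.69, TIM13 −1.25, TOM5 −1.11, TOM20 −0.36, TOM22 −0.45, TIM17 −0.60 and TOM40 −0.0522. At 25 °C TIM8 was at −0.23, TIM9 −0.94, TIM13 −0.60, TOM22 −0.23 and TIM23 −0.53, while PAM16 stayed called (adjusted p = 0.0488). Over Mex67 TIM9 was at −0.58, TIM13 −0.27, TOM5 −0.21 and TOM20 −0.10 at 42 °C, and TIM13 −0.42 and TOM6 −0.33 at 25 °C. The culture block called 0 members in every heat comparison. Of all features it called 41 higher and 5 lower with Npl3, and 3 and 0 with Mex67. With length correction it gave a Mex67 median of −0.23 for the members.

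Total counts alone gave 4 called members over no tag at 42 °C (median 1.90), 2 at 25 °C and 0 over Mex67 at 42 °C, with a median of 0.44 for Mex67 over no tag at 42 °C. It moved the median of all features to 0.51 and 0.25 (Npl3 over no tag at 42 and 25 °C) and to 0.69 and 0.26 (Mex67 over no tag), so differences there are relative to that shift. Among all features it called 643 higher and 16 lower over no tag at 42 °C, against 343 and 49 with TMM. Over no tag at 25 °C it called 205 and 9, against 119 and 7, and over Mex67 at 42 °C 6 and 3, against 170 and 36. RLE size factors gave 1 called member over Mex67 at 25 °C, where 144 of all features were called higher and 13 lower. Without the low-count filter there were 2 over no tag and 4 over Mex67 at 25 °C, where 240 and 281 of 6445 features were called higher. With a mean of at least 50 counts, which 4 members reach, there were 1 and 3 over Mex67 at 42 and 25 °C. There 84 and 126 of 2247 features were called higher. The medians were 1.68 for Npl3 and 0.21 for Mex67 over no tag at 42 °C. Only the groups compared gave 3 over no tag at 42 °C, where 365 of 4953 features were called higher. Over Mex67 it gave 0 at 42 °C and 1 at 25 °C, where 0 of 5268 and 252 of 4801 features were called higher. DESeq2 gave 4 over Mex67 at 25 °C, where it called 239 of all features higher and 44 lower. The cause of these changes was not tested.

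Leaving out 1 library gave member medians of 1.26 to 1.76 over no tag at 42 °C and 0.65 to 2.01 at 25 °C. Over Mex67 they were 1.38 to 1.75 at 42 °C and 1.26 to 2.13 at 25 °C. Calls of members and of all features both changed with the library left out. The median heat change with Mex67 ranged from −0.23 to 0.50. For Npl3 over no tag at 25 °C, TIM9 ranged from −0.61 to 1.81 and TIM23 from −0.13 (without Npl3 replicate 2 at 25 °C) to 0.43. A group left with 1 library was assumed to vary like the others. Members with 1 to 6 counts in the smallest library limit every comparison with heated no-tag libraries.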
